A study of Mus musculus with 32 samples.

Results

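The mRNAs described here encode the proteins of the mitochondrial ribosome. They are the 75 genes that the deposited neurite enrichment tables list as protein-coding with a symbol made of Mrpl or Mrps and a number, out of 23566 genes in those tables and 55573 in the count table. By name 49 belong to the large subunit and 26 to the small subunit, and 45 have a bacterial homolog. The symbol is a label and not always a place: Mrps30, for instance, carries a small-subunit name but sits in the large subunit. Mitochondrial ribosomal proteins whose symbols end in a letter or follow another pattern, such as Mrps18a and Dap3, are not members and are described only as a comparison list.

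Mitochondria keep their own ribosomes, which make the few respiratory chain subunits that mitochondrial DNA still encodes. All proteins of these ribosomes are encoded in the nucleus, made by cytosolic ribosomes and imported, while the ribosomal RNAs come from the mitochondrial genome. Part of the protein set descends from the bacterial ancestor and part was added in the mitochondrial lineage. In neurons, mitochondria travel along axons and dendrites, and mRNAs of nuclear-encoded mitochondrial proteins have been found far from the cell body.

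Primary hippocampal neurons from neonate mice were grown on a microporous membrane, which let soma (top) and neurites (bottom) be scraped off separately. Each culture was transduced at DIV 7 with AAV carrying Cre-P2A-dTomato, in WT (C57BL/6) as well as in Mettl3Flox/Flox neurons, so that the controls carry Cre too and only the floxed cultures (Mettl3-/-, here Mettl3 KO) lose Mettl3, the catalytic m6A methyltransferase. Cre was driven by the human synapsin promoter, so cells other than neurons in the culture keep the gene. At DIV 14 the activity of all cultures was silenced for 16 h (D-AP5 at 50 µM together with tetrodotoxin at 1 µM). They were then left untreated (Ctrl) or depolarised with 55 mM KCl for 2 h. Each of the 8 groups (WT or Mettl3 KO, soma or neurites, Ctrl or KCl) held 2 RNA-seq libraries, which the study describes as cultures of distinct litters with pups pooled. It used the same litter for a Ctrl and a KCl culture, so the 4 WT inserts are not 4 independent litters. A further 16 libraries were made for DART-seq, in which an APOBEC1-YTH protein turns the C next to an m6A into U.

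Depth ran from 33789183 to 71394235 counts per library. All 75 mRNAs were counted in every library, and 74 had at least 100 counts in each. The exception was Mrpl53, with 1 to 26 counts. Levels are given as CPM, counts scaled to 1 common library total with TMM factors over the 16 libraries, and as RPKM where genes are compared with each other, because RPKM also divides by length. Mettl3 was measured at 16.2 and 16.7 CPM in WT Ctrl soma against 8.94 and 11.0 in Mettl3 KO Ctrl soma, and at 12.01 and 12.5 in WT neurites against 3.91 and 6.76 in Mettl3 KO neurites. Counts over the whole gene include exons that Cre does not remove, so they do not measure how complete the knockout was. The paper reports a nearly complete loss of the METTL3 protein. Some features of the libraries touch the results. Summed astrocyte markers were higher in WT Ctrl neurites (2050 and 3143 CPM) than in soma (1159 and 1182), and summed neuronal markers were too (5365 to 6248 against 3945 to 4151). A single library, Mettl3 KO soma Ctrl replicate 2, stood apart in the mitochondrial ribosomal genes themselves.

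These mRNAs were present at moderate and widely differing levels. In WT Ctrl soma their median was 14.6 RPKM. Mrpl28 was highest at 100.1 ± 1.76 RPKM (SD, n = 2, as for the other levels), above Mrpl41 at 78.6 ± 2.77 and Mrps21 at 59.7 ± 8.85. The replicates of these neighbours did not overlap. At the other end were Mrpl33 at 3.06 ± 0.53, Mrps35 at 1.96 ± 0.02 and Mrpl53 at 0.268 ± 0.09 RPKM. The value of Mrpl53 is uncertain: the protein-coding gene Gm42688 overlaps it on the same strand, and DART-seq listed 2 sites in Mrpl53. The effect of the overlap on its count was not tested. The RPKM scale divides by the summed exon length of all isoforms, so a gene with a long rare isoform is placed lower than its main mRNA would be. The genes of the small subunit by name made up 34.3% to 34.7% of the summed CPM of all members in the 4 WT Ctrl libraries, a share that barely differed between soma and neurites.

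As a group, mRNAs of the mitochondrial ribosome were neither high nor low in WT Ctrl neurites, but single members ran both ways. The median neurites/soma log2 change of the 75 was −0.08, beside −0.10 over the 23200 genes tested, and 28 of 75 lay above 0 (42.9% of all genes did). Of the members, 9 were at least 1.5-fold higher in neurites with an edgeR adjusted p within 0.05, against 9.01% of all genes, and 0 were lower, against 4.54%. The share of 12% is near that background. With no minimum fold, 11 were higher (10.9% of all genes) and 7 lower (8.59%). The large-subunit names had a median of −0.06 with 6 of 49 called, and the small-subunit names a median of −0.16 with 3 of 26 called. Genes with a bacterial homolog had a median of −0.08 (6 of 45 called) and those without one −0.09 (3 of 30 called).

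**Figure D1:**
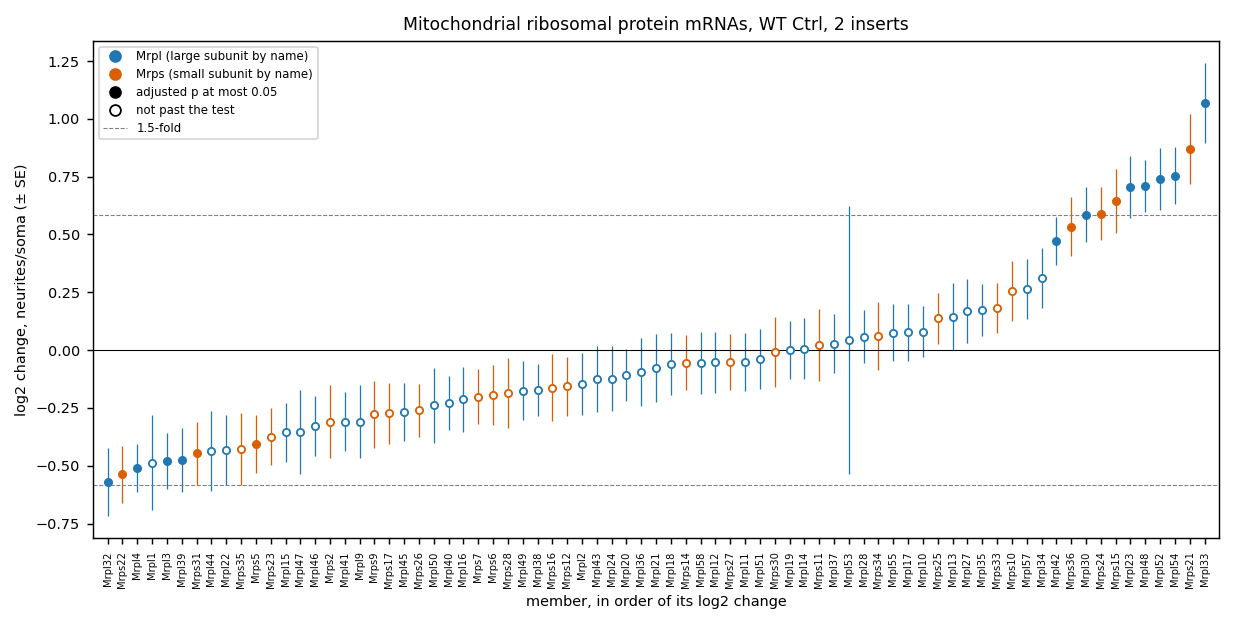
The neurites/soma log2 change of each of the 75 mitochondrial ribosomal mRNAs in WT Ctrl neurons, ordered by size, with bars for the standard error of the edgeR fit. Colours give the subunit by name, and filled points have an adjusted p of at most 0.05. The order runs from Mrpl33 at 1.07 to Mrpl32 at −0.57, and most members lie within a band around the median of −0.08.

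The lead of the neurite side was held by small proteins. Mrpl33, the counterpart of bacterial L33, measured 25.2 and 19.7 CPM in soma and 43.6 and 57.1 in neurites, a log2 change of 1.07 ± 0.17 (SE, n = 2 per group, edgeR adjusted p = 0.00272). Mrps21, the counterpart of bacterial S21, measured 48.8 and 39.5 CPM in soma and 78.2 and 94.3 in neurites, a change of 0.87 ± 0.15 (edgeR adjusted p = 0.00386). In both, the lower neurite library stood above the higher soma library.

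Proteins of the large subunit that bacteria lack followed. Mrpl54 measured 25.5 and 22.0 CPM in soma and 40.6 and 45.0 in neurites (log2 0.75 ± 0.12, edgeR adjusted p = 0.0029). Mrpl52 measured 23.7 and 20.4 against 39.0 and 39.6 CPM (0.74 ± 0.13, edgeR adjusted p = 0.00488), and Mrpl48 35.3 and 32.7 against 55.5 and 63.3 CPM (0.71 ± 0.11, edgeR adjusted p = 0.00269). Neurites and soma did not overlap in any of them.

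The other called members have bacterial counterparts. Mrpl23, whose bacterial relative lies at the exit of the peptide tunnel, measured 29.7 and 26.2 CPM in soma and 45.0 and 52.6 in neurites (log2 0.71 ± 0.14, edgeR adjusted p = 0.00638). Mrps15 rose from 31.5 and 32.8 to 51.9 and 55.5 CPM (0.64), Mrps24, the counterpart of bacterial S3, from 66.8 and 60.0 to 95.2 and 108.7 CPM (0.59), and Mrpl30 from 68.6 and 64.1 to 99.2 and 113.5 CPM (0.59). Together the 9 called members held 10.8% and 11.9% of the summed member CPM in soma and 17.3% and 19.3% in neurites. Mrpl42 and Mrps36 passed the adjusted p below 1.5-fold (0.47 and 0.53). Mrps36, a member here by its symbol, is known as a subunit that ties together the 2-oxoglutarate dehydrogenase complex.

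Members on the soma side changed less. Mrpl32, which is matured by a protease of the inner mitochondrial membrane, measured 41.1 and 41.7 CPM in soma and 29.5 and 30.0 in neurites, a log2 change of −0.57 ± 0.15 (edgeR adjusted p = 0.0232). Mrps22, which bacteria lack, measured 41.9 and 42.2 against 32.4 and 29.4 CPM (−0.54 ± 0.12, edgeR adjusted p = 0.0143). Mrpl4 measured 68.4 and 69.9 against 53.6 and 50.1 CPM (−0.51 ± 0.10, edgeR adjusted p = 0.00817). Each soma library was above each neurite library for all of these. Mrpl3, whose bacterial relative reaches towards the peptidyl transferase centre, measured 43.2 and 47.6 against 36.6 and 32.8 CPM (−0.48), and Mrpl39 (−0.48), Mrps31 (−0.45) and Mrps5 (−0.41) completed the 7. None of the 7 reached 1.5-fold.

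**Figure D2:**
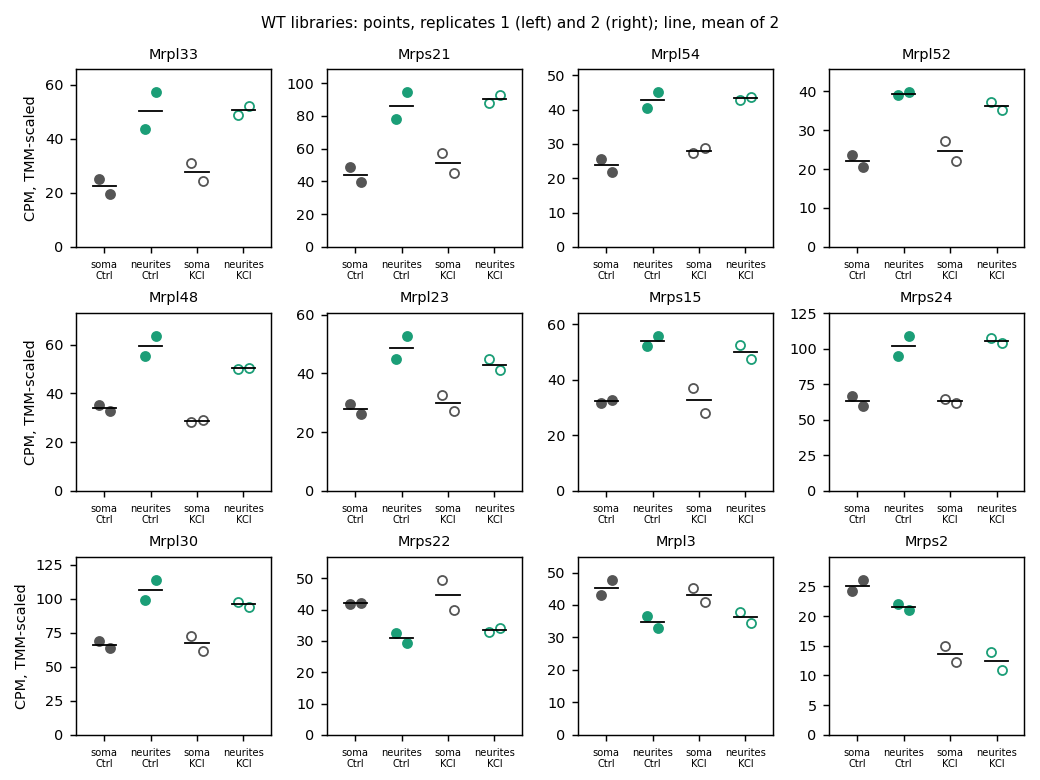
CPM of mitochondrial ribosomal mRNAs in each WT library, soma and neurites, Ctrl and KCl, with 1 point per library. For members called in WT Ctrl the neurite points lie above the soma points in Ctrl and in KCl, as for Mrpl33 with 19.7 to 31.0 CPM in soma and 43.6 to 57.1 in neurites.

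Members with well-studied single roles lay between these ends. The stalk protein Mrpl12, also reported to bind the mitochondrial RNA polymerase, measured 61.5 and 60.7 CPM in soma and 59.0 and 66.8 in neurites (log2 −0.05, edgeR adjusted p = 0.808). Mrps12, the counterpart of the bacterial decoding protein S12, measured 58.9 and 60.2 against 57.8 and 56.2 CPM (−0.16, edgeR adjusted p = 0.412). The compartments overlapped for Mrpl12, and for Mrps12 the neurite libraries lay just below the soma libraries. Mrpl45, which lies where the ribosome meets the inner membrane, measured 46.2 and 47.6 against 42.5 and 40.7 CPM (−0.27, edgeR adjusted p = 0.157). Mrpl44, which resembles ribonuclease III, measured 23.5 and 24.5 against 18.6 and 19.2 CPM (−0.44, edgeR adjusted p = 0.103). Over all 75, both neurite values exceeded both soma values in 26 members and the reverse held in 30. The same was not counted over all genes, so these counts are not a result about the members.

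These calls depended on which libraries were fitted and on the scaling. They come from a fit to the 8 WT libraries. With the 8 Mettl3 KO libraries added, whose replicates spread more, the count fell from 9 to 0. Over all 23200 genes the calls then fell from 2091 higher and 1054 lower to 0 and 0, so this loss was not particular to the members. The count was 4 without WT soma Ctrl replicate 2 and 5 without WT neurites Ctrl replicate 2. When the total count was used in place of TMM, the median of all genes moved from −0.10 to −0.33. The median of the members moved from −0.08 to −0.31. The calls moved from 9 higher and 0 lower to 2 higher (Mrpl33 and Mrps21) and 13 lower. Of 23200 genes, 1335 were then called higher and 3746 lower. Relative to the median of all genes the members stood at the same place under both scalings. Fewer cells of a type and less RNA per cell cannot be told apart in such bulk libraries, and the part of the astrocyte RNA in these neurite values was not tested.

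Several called genes may share reads with other places, by sequence or by position, and the extent was not tested. The authors counted reads that map to several places and did not use strand. Of the 75 members, 16 have a pseudogene with at least 95% identity over at least 200 bases, among them Mrpl23 (100% over 507 bases in Mrpl23-ps1), Mrpl48 (98.1% over 636 bases) and Mrps21 (97.3% over 264 bases). Another annotated gene overlaps 39 members, and among the called ones these are Mrpl33 (Rbks and Gm43809), Mrpl48 (Rab6a) and Mrps24 (Urgcp). Values of these genes are therefore uncertain.

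Other sets of mRNAs, mitochondrial and cytosolic, were placed differently. Nuclear-encoded respiratory chain genes had a median neurites/soma log2 change of 0.53 in WT Ctrl, with 33 of 82 called higher. Cytosolic ribosomal protein genes had a median of 0.77, with 52 of 81 called higher. These sets are given beside the 9 of 75 members called, with no test between the sets and no matching for mRNA length. The machinery that works with the mitochondrial ribosome stood at or below the members. Of 26 assembly factors (median −0.17) 3 were called lower: Mterf4 (−0.81), Mettl17 (−0.74) and Rpusd4 (−0.80). Of 14 mitochondrial translation factors (median −0.30) 0 were called, although Guf1 (−0.48) and the elongation factor Tufm (−0.37) passed the adjusted p. Of 17 mitochondrial aminoacyl-tRNA synthetases (median −0.14) Lars2 was called higher (0.79) and Hars2 lower (−0.73). All 7 genes of mitochondrial transcription had values below 0 (median −0.39), and 0 passed. Among the 9 mitoribosomal proteins outside the name pattern (median 0.02), Dap3 passed the adjusted p at −0.39.

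Members with short coding sequences lay higher. Over the 75 members, coding length and the neurites/soma log2 change in WT Ctrl had a Spearman rho of −0.53, and mRNA length had −0.41. Over 15490 protein-coding genes rho was −0.10 for coding length and −0.00012 for mRNA length. Both are descriptions over genes of the same 4 libraries, and genes are not independent replicates. The 9 called members had coding sequences of 195 to 774 bases (median 480) and the 7 lower ones of 561 to 1296 bases (median 1044), beside a median of 576 for all 75. Mrpl33 has the shortest coding sequence, 195 bases, and the highest change.

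By class, the 22 members under 450 coding bases had a median of 0.06, with 13 above 0 and 4 called. The 27 members from 450 to under 750 bases had a median of −0.05, with 11 above 0 and 4 called. The 26 members of 750 bases or more had a median of −0.31, with 4 above 0, 1 called (Mrps15) and 6 of the 7 lower ones. Other protein-coding genes ran the same way: 18.4% of 1022 were called higher in the shortest class (median 0.16), 11.8% of 1998 in the middle class (−0.01) and 6.47% of 12395 in the longest (−0.13). The members' median was below that of other genes in each class.

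**Figure D3:**
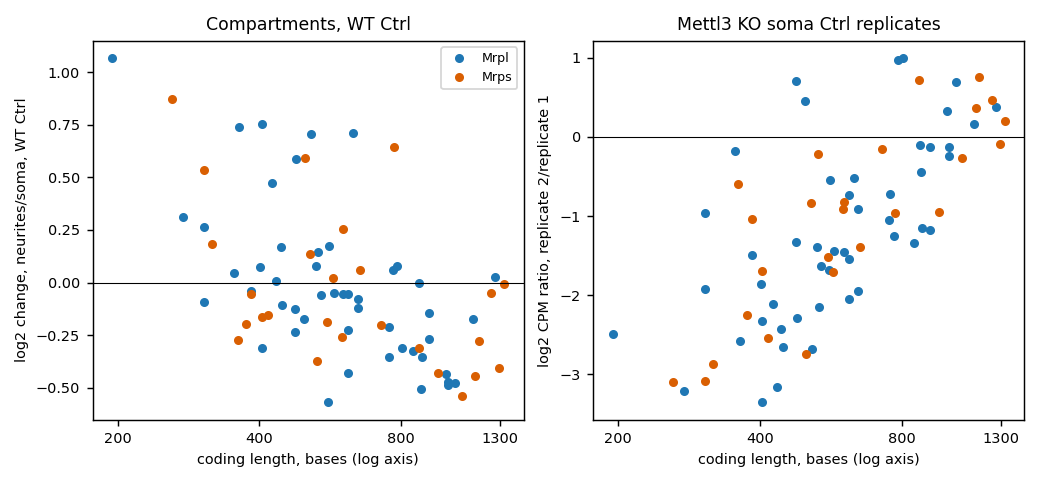
Coding length in bases (log axis) against the neurites/soma log2 change in WT Ctrl for the 75 members (left), with 1 point per gene and colours for the subunit by name. The points fall from the shortest coding sequence, Mrpl33 at 195 bases and 1.07, to a median of −0.31 for members of 750 bases or more (Spearman rho −0.53 over 75 genes). The right panel shows the log2 CPM ratio of Mettl3 KO soma Ctrl replicate 2 to replicate 1 against the same lengths.

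In KCl-treated WT neurons the same members led. The median neurites/soma log2 change of 74 members was −0.02, beside −0.03 over 23028 genes, and 6 were called higher (6.87% of all genes) and 0 lower (2.73%). All 6 were among the 9 called in Ctrl. At the adjusted p alone 10 were higher (8.59% of all genes) and 0 lower (4.8%), and all 10 were among the 11 of Ctrl. The values in KCl and in Ctrl come from different libraries of the same litters, and over 74 members they had a Spearman rho of 0.90 and a Pearson r of 0.94.

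Mrpl33 measured 31.0 and 24.5 CPM in KCl soma and 48.6 and 52.3 in KCl neurites (log2 0.88, edgeR adjusted p = 0.00879). Mrpl48 measured 28.2 and 29.0 against 50.1 and 50.4 CPM (0.83, edgeR adjusted p = 0.00172). Mrps21 measured 57.4 and 45.1 against 87.9 and 92.7 CPM (0.83, edgeR adjusted p = 0.00641). Neurites were above soma in each pair of libraries. Mrps24 (0.76), Mrpl54 (0.64) and Mrps15 (0.64) were the other called members, and Mrpl23 (0.54), Mrpl30 (0.52), Mrpl52 (0.57) and Mrpl42 (0.56) passed the adjusted p. Mrpl47 was lowest (−0.50, edgeR adjusted p = 0.104), followed by Mrpl32 (−0.47, edgeR adjusted p = 0.0624).

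The members called in Ctrl kept their direction over the 4 WT inserts, while many others did not. An insert here stands for the soma library and the neurite library of 1 label number. Of the 75, 17 members were above 0 and 21 below 0 in all 4 inserts, and the rest took both signs. The share of all genes that kept 1 sign was not counted. The 11 members higher and the 7 lower in Ctrl at the adjusted p kept their direction in all 4, of which the 2 Ctrl inserts are those that gave the calls. The group as a whole moved between inserts: the median log2 ratio was −0.02 and −0.0031 in Ctrl replicates 1 and 2, and −0.19 and 0.09 in KCl replicates 1 and 2, with 20 and 50 members above 0 in the latter pair. Leaving out WT soma KCl replicate 2 gave 5 higher and 6 lower in place of 6 and 0. Without WT soma KCl replicate 1 there were 11 higher, without WT neurites KCl replicate 1 there were 3, and with all 16 libraries fitted there were 0. In the fit of 16 libraries 0 of all 23028 genes were called, against 1582 higher and 629 lower in the fit of 8. With total-count scaling 3 were higher and 5 lower, beside 1070 higher and 1818 lower of 23028 genes.

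**Figure D4:**
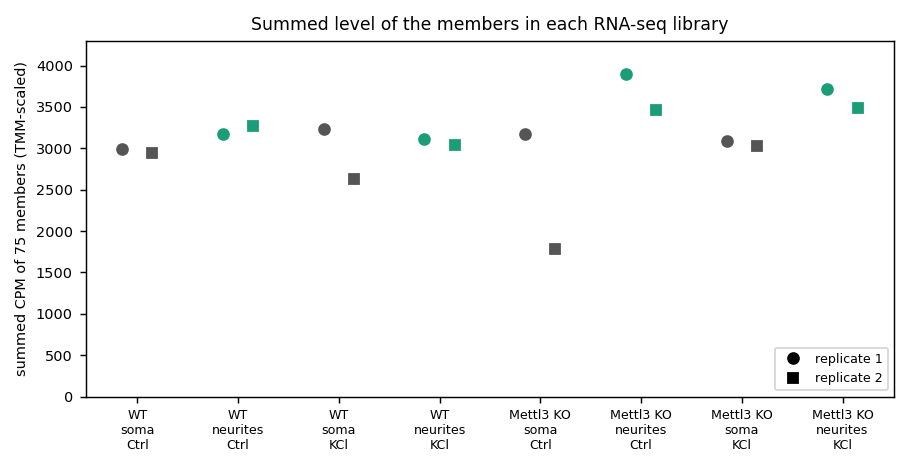
Summed CPM of the 75 mitochondrial ribosomal genes in each of the 16 RNA-seq libraries, with 1 point per library and groups along the axis. WT libraries lie between 2625 and 3267 CPM, and Mettl3 KO soma Ctrl replicate 2 lies at 1782.

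Hardly any mitochondrial ribosomal mRNA passed the test for a change after 2 h of KCl. A change here had to be 2-fold or more with an edgeR adjusted p within 0.05. In WT soma 0 of 74 members were called, beside 3.74% of all genes higher and 2.96% lower. DESeq2 also called 0. At an unadjusted edgeR p of at most 0.05, 0 were higher (11.6% of all genes) and 11 lower (14.5%), and the median log2 change was −0.10 beside 0.01 over 24060 genes. Summed astrocyte markers (1655 and 1674 CPM in KCl soma against 1159 and 1182 in Ctrl) and neuronal markers (5471 and 5524 against 3945 and 4151) were higher in KCl soma, with 9 and 6 of 10 above 0, and their part in these values was not tested. In WT neurites 0 of 74 were called (3.33% of all genes higher and 1.7% lower), 0 by DESeq2, with 1 higher (12.9% of all genes) and 5 lower (9.91%) at the unadjusted p and a median of −0.04.

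The exception below the fold limit was Mrps2, the counterpart of bacterial S2. It measured 24.1 and 26.0 CPM in WT Ctrl soma and 15.0 and 12.2 in KCl soma, a log2 change of −0.96 ± 0.16 (SE, n = 2 per group, edgeR adjusted p = 0.00296). In neurites it measured 22.1 and 21.1 CPM in Ctrl and 14.01 and 10.9 in KCl, a change of −0.75 ± 0.16 (edgeR adjusted p = 0.0164). Ctrl and KCl did not overlap in either compartment. Over the alternatives the soma change ran from −0.83 to −1.10 and the neurite change from −0.57 to −0.93. The adjusted p lost the threshold with 16 libraries (0.259 in soma and 0.394 in neurites) and on leaving out WT soma Ctrl replicate 2 (0.0542), WT neurites Ctrl replicate 1 (0.0623) or 2 (0.0531) or WT neurites KCl replicate 2 (0.173). In Mettl3 KO, a contrast that was not fitted here, soma Mrps2 measured 31.5 and 52.1 CPM in Ctrl and 20.4 and 19.1 in KCl. The 52.1 is from Mettl3 KO soma Ctrl replicate 2, the library that stood apart. In Mettl3 KO neurites it measured 29.6 and 25.5 CPM in Ctrl and 29.5 and 19.9 in KCl, which overlap. Next in soma was Mrpl44 at −0.54 (edgeR adjusted p = 0.0709), which stood at −0.44 in neurites (edgeR adjusted p = 0.161). The largest rise in soma was that of Mrps28, at 0.29 (edgeR adjusted p = 0.26).

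Among genes that serve the mitochondrial ribosome, several fell under KCl. In WT soma, 6 of 26 assembly factors were lower at the adjusted p, with Mettl17 (log2 −1.08), Rpusd3 (−1.04) and Ybey (−1.12) past 2-fold. Mettl17 and Ybey act in the maturation of the small subunit. Of 14 translation factors 4 were lower: Guf1 (−2.19), the initiation factor Mtif3 (−0.82), Gfm2 (−0.74) and Mtfmt (−0.63). Of 17 synthetases 3 were lower, led by Pars2 (−1.64), and of 7 transcription genes 3 were lower, Tefm (−1.21), Mterf1a (−1.52) and Mterf1b (−1.58), of which the last 2 are near-identical paralogs. No gene of these lists was higher at the adjusted p. At the adjusted p 6.13% of all genes were higher and 7.07% lower, and of the members 0 of 74 and 1 of 74. In neurites the corresponding counts were 5 of 26, 4 of 14, 1 of 17 and 3 of 7, beside 3.24% of all genes lower and 5.59% higher. The difference between these lists and the members was not tested.

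Neurite enrichment itself did not change detectably with KCl. At the study's rule of an unadjusted p of at most 0.05 and at least 1.5-fold, 0 of 74 members changed (2% of all genes were higher and 1.35% lower). DESeq2 gave 0, and 0 passed the unadjusted p at any fold (2.59% of all genes higher and 1.57% lower). The log2 changes of enrichment ran from −0.24 (Mrps28) to 0.34 (Mrpl40), with a median of 0.07 beside 0.05 over 23200 genes. The comparison uses the Ctrl and KCl libraries described above and is not independent of them.

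Loss of Mettl3 gave no called member in either compartment, and the soma values turned on 1 library. In Mettl3 KO against WT Ctrl soma, edgeR called 0 of 75 (0.0632% of all genes were higher and 0.122% lower) and DESeq2 0. At the unadjusted p, which 4.54% of all genes passed as higher and 4.43% as lower, Mrps2 was higher (log2 0.74) and Mrpl1 (−0.74), Mrpl48 (−0.63) and Mrpl2 (−0.71) were lower. The median of the members was −0.32, beside 0.02 over 23750 genes. All 10 astrocyte markers measured above 0 in the same contrast, with summed levels of 1943 to 2541 CPM in Mettl3 KO Ctrl soma against 1159 to 1182 in WT, while neuronal markers overlapped (3515 to 4358 against 3945 to 4151). In neurites edgeR called 0 of 74 (0.0642% of all genes higher and 0.124% lower) and DESeq2 0. Astrocyte markers (10 of 10 above 0) summed to 2931 and 6745 CPM in Mettl3 KO Ctrl neurites against 2050 and 3143 in WT, which overlap, and neuronal markers (2 of 10 above 0) to 3798 and 4241 against 5365 and 6248, which do not. The part of these markers in the member values was not tested. The median of the members in neurites was 0.16, and Mrpl48 (−0.73) and Mrps23 (0.62) passed the unadjusted p (4.71% of all genes lower and 2.76% higher). Mrpl48 thus measured low in both compartments of Mettl3 KO neurons at the unadjusted p, and neither value passed the adjustment (edgeR adjusted p = 0.425 in neurites).

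Mettl3 KO soma Ctrl replicate 2 held fewer counts of these genes than any other library. Its summed member CPM was 1782, against 3177 in replicate 1, 2993 and 2939 in WT Ctrl soma, and 3903 and 3465 in Mettl3 KO Ctrl neurites. Of 75 members 62 were lower than in replicate 1, by a median log2 of −1.15, and 52 were at their lowest of the 16 libraries. Mrps21 measured 4.42 CPM there against 41.6 in replicate 1, Mrpl54 3.31 against 38.4, and Mrps12 10.5 against 63.2. Some members went the other way, such as Mrpl9 with 55.1 CPM against 27.3 and Mrps2 with 52.1 against 31.5. The shares of all genes lower than in replicate 1, or at their lowest in this library, were not counted. How far the member counts are general to the library is therefore not shown.

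The shortfall followed length. Across the 75 members coding length had a Spearman rho of 0.70 with the log2 ratio of replicate 2 to replicate 1, and mRNA length 0.64, whereas in the other 7 groups rho for coding length ran from −0.18 to 0.51. Other sets of short mRNAs were low in the same library: cytosolic ribosomal protein genes summed to 3921 CPM against 14012 in replicate 1, and respiratory chain genes to 8331 against 18844. The cause was not tested. Without that library the median Mettl3 KO/WT log2 change in soma was 0.02 in place of −0.32. With it as the only Mettl3 KO soma Ctrl library the median was −1.06, beside −0.06 over all genes.

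Neurites of Mettl3 KO neurons, measured against their soma, carried the same feature. EdgeR called 0 of 74 members (0% of all genes in either direction), DESeq2 0, and 3 were higher and 0 lower at the unadjusted p (3.91% and 1.58% of all genes). The median log2 change was 0.63. The per-insert medians were 0.20 in Ctrl replicate 1 and 1.31 in Ctrl replicate 2, against 0.25 and 0.12 in the KCl inserts, so that the high median rested on the library described above. Without it the median was 0.16, and without replicate 1 in its place the median was 1.40. The leading members, Mrps21 (1.85), Mrpl33 (1.84) and Mrpl52 (1.78), were also among the leading ones in WT. The KCl-treated Mettl3 KO insert 1 held 9916 and 19360 CPM of astrocyte markers in soma and neurites, and only 2071 and 1194 of neuronal markers. Its summed member CPM was 3094 and 3721, against 3027 and 3485 in insert 2. Over single members, the log2 ratio between these inserts had an SD of 0.31 in soma and 0.40 in neurites. The part of the markers in these member values was not tested.

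The difference in Ctrl neurite enrichment between Mettl3 KO and WT passed the study's unadjusted rule in 8 members, all higher in Mettl3 KO (2.91% of all genes were higher and 1.28% lower). They were Mrps33 (log2 1.64), Mrps24 (1.46), Mrpl36 (1.38), Mrps28 (1.29), Mrpl32 (1.24), Mrps16 (1.18), Mrps26 (0.85) and Mrps17 (0.74), each at an edgeR adjusted p of 0.934. The median of the 75 was 0.73, beside −0.03 over 22942 genes. Mrps28 measured 10.5 and 3.34 CPM in Mettl3 KO soma and 16.5 and 11.4 in Mettl3 KO neurites, against 12.5 and 12.5 in WT soma and 11.5 and 11.9 in WT neurites. The lowest value was that of Mettl3 KO soma Ctrl replicate 2. Without Mettl3 KO Ctrl replicate 2 the median was 0.25, and without Mettl3 KO Ctrl replicate 1 it was 1.18. It was 0.71 without WT Ctrl replicate 1 and 0.70 without WT Ctrl replicate 2. No member passed when p was adjusted or when the term per insert was dropped (0 each). DESeq2 gave 27, all higher, beside 1341 higher and 243 lower of 22942 genes.

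DART-seq listed editing in most of these mRNAs. The authors' editing score is the sum over an RNA's sites of the average C-to-U fraction, and their sites had to be higher in WT than in Mettl3 KO, so the difference between genotypes is part of how they were chosen. Of the 75 members, 57 (76%) had a score among 5643 RNAs listed, with 113 distinct sites. Of the 15532 protein-coding genes tested in WT Ctrl, 35.4% had a score, but their median level was lower (3.14 RPKM in WT Ctrl soma). Between the lower and upper quartile of the members' levels, 7.55 and 26.6 RPKM, 32 of 37 members had a score, beside 73.1% of 3131 other protein-coding genes. A single site was found in 24 members, 2 sites in 19 and 3 or more in 14, up to 6. The 5 most edited sites are shown, then the most edited site of each of the 6 called members that have one (of 4 sites in Mrps15, of 3 in Mrpl30, Mrpl48 and Mrpl23), with 10 bases on each side, as GRCm38 (mm10) sequence of the gene's strand. Capitals mark the RAC motif (R stands for A or G), of which the A is the position of m6A and the C is edited.
Mrpl20, chr4:155808778-155808798, plus strand, 3′UTR, 16.7% edited: cggccccaAACtgtcctgtaa
Mrpl46, chr7:78775637-78775657, minus strand, coding, 15.4% edited: gcaattcaGACagagagtgac
Mrpl47, chr3:32727706-32727726, minus strand, coding, 15.0% edited: ttattctaGACtaagaattga
Mrpl50, chr4:49513887-49513907, minus strand, 3′UTR, 14.5% edited: agcatgcaAACatagttaaag
Mrpl13, chr15:55548194-55548214, minus strand, coding, 12.4% edited: tcataataAACacaagacata
Mrps15, chr4:126054989-126055009, plus strand, coding, 11.9% edited: tgagcatcGACcggaggaaaa
Mrpl30, chr1:37897741-37897761, plus strand, coding, 8.32% edited: ccctcacaAACtgcacattgt
Mrpl48, chr7:100549358-100549378, minus strand, coding, 7.90% edited: ctgaagaaGACttcaagggaa
Mrpl54, chr10:81264902-81264922, minus strand, coding, 4.76% edited: acttcgcaAACagaatatctg
Mrpl23, chr7:142540522-142540542, plus strand, coding, 4.25% edited: catgggcaGACcttcactttc
Mrpl52, chr14:54427077-54427097, plus strand, coding, 1.86% edited: ccagtggcGACtccagtgagt

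All 113 sites lay in RAC, as did all sites of the list by its construction, and 59 were GAC and 54 AAC. GAC made up 52.2% of the members' sites and 53.7% of all sites. By annotation 81 sites (71.7%) lay in coding sequence, 26 (23.0%) in the 3′UTR and 4 in the 5′UTR, against 59.8% in coding sequence and 32.1% in the 3′UTR for all sites. Of 108 sites placed on the chosen transcript, 46 lay within 200 bases of the stop codon. The share over all sites was not counted, and the members' coding sequences are short (median 576 bases). Editing per site had a median of 4.12% in members and 3.54% over all sites, and ran from 0.445% to 16.7%.

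The scores of the members were near those of other RNAs. The median WT score was 0.0837, beside 0.103 over all RNAs, and the median Mettl3 KO score was 0.0226, beside 0.0285. Mrpl20 had the highest WT score, 0.572, but its 4 sites appear 2 times each in the site list, so that this score counts them repeatedly. The 18 members without a score had a median level of 11.6 RPKM in WT Ctrl soma, against 14.9 for those with one. They include 3 of the 9 members called in neurites (Mrpl33, Mrps21 and Mrps24) and Mrps2.

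Editing was more often higher in neurites than in soma, as for RNAs in general. The score was higher in neurites for 36 of 57 members (63.2%), lower for 20 and equal for 1, beside 68.8% higher over all 5643 RNAs. The medians of the members were 0.0619 in soma and 0.0889 in neurites. Mrpl42 went from 0.0887 in soma to 0.270 in neurites, Mrpl37 from 0.0446 to 0.189 and Mrpl23 from 0.0232 to 0.166. Mrpl49 (0.149 to 0.290) and Mrpl3 (0.0463 to 0.177) followed. The largest fall was that of Mrpl46, from 0.194 to 0.0759. Of the 11 members whose mRNA was higher in neurites at the adjusted p, 7 had a score, which was higher in neurites for 6 and lower for 1 (Mrpl54). Of the 7 whose mRNA was lower, 5 had a score, which was higher in neurites for 3 (Mrps22, Mrpl3 and Mrpl39), lower for 1 (Mrpl4) and equal for 1 (Mrpl32). These scores are averages over Ctrl and KCl libraries together, whereas the mRNA values beside them are those of Ctrl, and they come with no replicate values and no depth, so no test was made and none of the differences has an error.

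**Figure D5:**
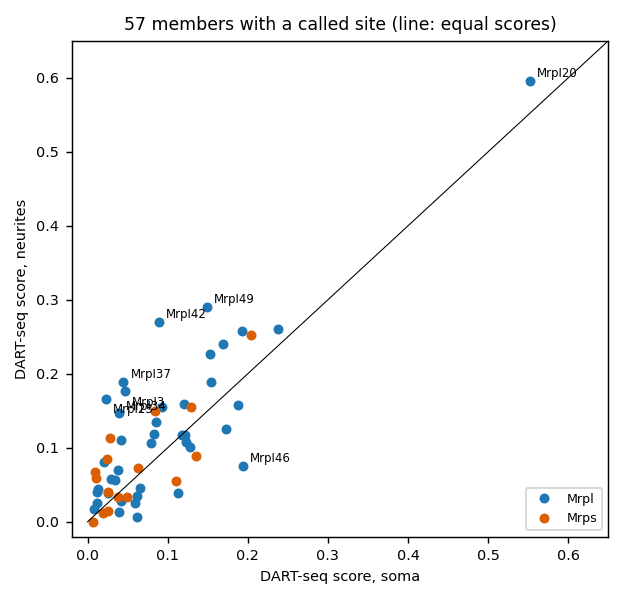
DART-seq editing score in soma against neurites for the 57 mitochondrial ribosomal mRNAs with a score, with 1 point per mRNA and a line of equal scores. More points lie on the neurite side (36) than on the soma side (20), and Mrpl42 (0.0887 and 0.270) and Mrpl46 (0.194 and 0.0759) lie far from the line in opposite directions.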

How the data were processed

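RNA-seq of 16 libraries and tables from 16 DART-seq libraries were used. Per the labels and the study's methods, the authors aligned reads with STAR 2.7.7a to mm10 and counted fragments per gene with featureCounts 2.0.1 (reads of several places included, no strand), and the deposited values are counts without normalization. The deposited DART-seq tables hold the authors' editing score per RNA and the C-to-U fraction per site, averaged over libraries, and the site list's fraction is given here as percent. From the deposited neurite enrichment tables only gene names and biotypes were used, not the mean signal that the authors scaled by DESeq2 size factors, nor their fold changes and p-values.

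Counts were scaled by TMM and tested with edgeR 4.0.16 in R 4.3.3 (two-sided quasi-likelihood F-test, with p adjusted after Benjamini and Hochberg over all genes tested). Only genes whose count averaged 10 or more in the compared libraries were tested, and 37 mitochondrially encoded genes, at 0 in every library, were left out. WT comparisons were fitted on the 8 WT libraries, the Mettl3 KO compartment comparison on the 8 Mettl3 KO libraries and genotype comparisons on 16. A change in neurite enrichment is an interaction term with 1 term per insert, in place of the study's Xtail, which was not used here. Thresholds followed the study: adjusted p of at most 0.05 with 1.5-fold, with 2-fold for KCl. For changes in neurite enrichment they were 1.5-fold with an unadjusted p within 0.05. The study used its 2-fold rule for KCl in soma only, and here it was applied to neurites too. Log2 ratios per insert used CPM plus 0.5. Fits on 8 libraries rescale them, so their changes differ slightly from CPM ratios. The test was first tried on simulated data. Coding and mRNA lengths and sites used GRCm38 annotation, with the longest coding transcript per gene, and pseudogene copies were searched with blastn 2.17.0.

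Alternatives were DESeq2 1.42.0, RLE scaling, no filter and a mean count of at least 100, a replicate block, no minimum fold, other sets of libraries and each replicate left out. Total-count scaling, leaving out insert 1 of KCl-treated Mettl3 KO and the crossed pairing were chosen after seeing the data. Members and gene lists were chosen with earlier results of these data known. Members named are those called, the extremes and smallest p of each comparison, those with well-known roles and those with notable DART-seq values. Each group has 2 libraries, so p-values measure the spread between these cultures, and counting intervals do not cover PCR duplicates.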

Additional observations from a re-analysis of the deposited data

Results flagged for a closer look

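The difference in Ctrl neurite enrichment between Mettl3 KO and WT passed an unadjusted p of at most 0.05 and 1.5-fold in 8 members, by a test of the interaction itself, and is listed for that unadjusted p alone. All 8 were higher in Mettl3 KO, none passed the adjustment (edgeR adjusted p = 0.934 for each), and 1 passed without Mettl3 KO Ctrl replicate 2, whose soma library summed to 1782 CPM of member counts against 3177 in replicate 1.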

How the results depend on the processing

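No result changed its sign after being called. Counts are of members unless all genes are named. With 16 libraries, WT Ctrl and WT KCl neurites against soma called 0 of all genes tested as well. With no filter, the Mettl3 KO change in enrichment called 2124 higher and 543 lower of 47379 genes. The ranges on leaving out 1 library or 1 insert are given for members alone. They do not show a result particular to the members. WT Ctrl neurites against soma called 9 members, 18 with no minimum fold, 0 with 16 libraries, 15 with total-count scaling (2 higher and 13 lower) and 4 to 11 on leaving out 1 library (4 without WT soma Ctrl replicate 2, 5 without WT neurites Ctrl replicate 2). WT KCl called 6, 10 with no minimum fold, 0 with 16 libraries and 3 to 11 on leaving out 1. KCl called 0 in soma, 1 with no minimum fold, 1 with total-count scaling and 0 to 1 on leaving out 1 library (the 1 was Mrps2, without WT soma KCl replicate 1), and in neurites 0, or 1 with no minimum fold. Mettl3 KO against WT soma called 0, and 0 to 45 on leaving out 1 library, and Mettl3 KO neurites against soma 0, and 0 to 20, both highest without Mettl3 KO soma Ctrl replicate 1. The Mettl3 KO change in enrichment called 8, 27 with DESeq2, 35 with no filter, 0 with adjusted p, 1 with the Ctrl libraries alone, 0 with no replicate block and 0 to 55 on leaving out 1 insert. The study pairs soma and neurites of an insert, but whether the label numbers mark these pairs was not settled by the values: the difference between replicates in soma correlated with that in neurites at −0.114 in WT Ctrl, 0.0636 in WT KCl, 0.0419 in Mettl3 KO Ctrl and 0.873 in Mettl3 KO KCl. With the replicate block 9 members were called in WT Ctrl, 6 in WT KCl and 0 in the other fits to which it was added, as without it. With the WT Ctrl numbers crossed the counts were 8 in WT Ctrl and 9 for the Mettl3 KO change. With 2 libraries per group, a miss of the threshold does not show equal levels.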
